A study of Mus musculus with 2 samples.

Results

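Eukaryotic translation initiation and elongation factors were examined in mouse liver RNA upon fasting and upon feeding. Members were all genes on the array whose symbol begins with Eif1 to Eif6 or with Eef1 or Eef2, without the Eif2ak kinases, and they comprised 64 of the 20652 genes named on the array, measured by 91 of its 39402 probes. The 3 Eif4ebp genes, which encode inhibitors of initiation, are given apart, which leaves 61 factor genes. Livers came from male mice, C57BL/6J aged 8 to 12 weeks according to the general animal methods, under a 12-h light and dark cycle, with no transgene or drug named for either group. The fasting group went without food for 16 h in one label and for 14 to 16 h overnight in another. The feeding group is labelled both as fed ad libitum and as given food after the fast. RNA of 3 livers was pooled per group and hybridised with 1 dye to 1 array per group, so no difference between the groups has a replicate check and no p-value is given.

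Initiation factors bring the initiator tRNA, the small ribosomal subunit and the capped mRNA together and find the start codon, and elongation factors then deliver aminoacyl-tRNAs and move the ribosome along the message. eIF2 carries the initiator tRNA, eIF2B recharges eIF2 with GTP, eIF3 is a scaffold on the small subunit, and the eIF4 factors bind the cap and unwind the leader. In liver, food intake raises protein synthesis largely through phosphorylation, in which mTORC1 releases eIF4E from its binding proteins and eIF2 kinases are restrained. The array measures mRNA levels only and does not see these steps.

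Both arrays had 44397 spots, with no saturated spot, and signal well above background was seen at 63.1% of transcript spots in the fasting group and at 72.3% in the feeding group. Of 7 hepatocyte markers, such as Alb and Ttr, all were well above background on both arrays, with normalized signals from 25500 to 151264. Skeletal muscle markers reached at most 15.6, those of adipose tissue 10.2, those of bile duct 44.5 and those of pancreas 352, the last value being that of Ctrb1. The red blood cell markers Hba-a1 and Hbb-bt were bright on both arrays and changed by -0.05 and 0.01 on the log2 scale, and of the leukocyte markers Ptprc changed by -0.49 and Cd3e by -0.37. The part of other cells in the differences below was not tested, and in bulk RNA fewer cells of a type and less RNA per cell cannot be told apart. Changes are log2 differences of feeding over fasting after quantile normalization, each gene takes the value of whichever of its probes had the highest mean log2 signal (called its bright probe), and a 2-fold difference, the filter named in the study's methods, counts as a call. For the factor and Eif4ebp genes, signals below are processed signals from before this normalization unless called normalized. Their ratio therefore differs somewhat from the change printed with them. With 1 array per group, an error can be taken only from probes spotted 5 or more times on each array, for which the median SD of a difference was 0.29 on the log2 scale in the dimmest of 3 equal groups of genes by signal, 0.09 in the middle one and 0.08 in the brightest one. This SD covers noise between spots of an array only, and not differences of labelling, hybridisation or mice. It is therefore not the uncertainty of a change upon feeding.

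Of the 61 factor genes, 59 were measured, which means well above background on at least 1 array, and 50 of these lay in the brightest of the 3 groups. Eef1a2, the form of eEF1A known from muscle and neurons, stayed at background upon fasting and feeding alike, with processed signals of 3.82 and 2.70, and so did Eif4e1b. Small increases prevailed upon feeding. In all, 48 of the 59 genes were higher and 11 were lower, with a median change of 0.28, whereas 51.3% of all genes with a fold were higher and their median was 0.01. Among the brightest genes the share higher was 51.8% and the median 0.01, against 40 of 50 and 0.26 for the factor genes of that group. With each array scaled by its median, 53 of the 59 genes were higher and their median was 0.46. That scaling raised other genes too: 62.3% of all genes with a fold were higher, with a median of 0.13. The median of the brightest genes was then 0.21.

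Few of these changes were large. At 2-fold, 6 of the 59 genes were called (10.2%), 4 higher and 2 lower, against 7.91% of all 16346 genes measured (3.29% higher and 4.62% lower), so the share called was near the background. Among the brightest genes 3 of 50 factor genes were called, 1 higher and 2 lower, against 5.8% of all genes of that group (2.09% higher and 3.71% lower). At 1.5-fold, 8 of the 59 factor genes were called, against 21.1% of all genes, and in the brightest group 5 of 50, against 17.3%. The calls comprised Eif2b3, Eef1aknmt, Eef1e1 and Eef2k, which were higher upon feeding, and Eif5a and Eif1, which were lower. The next largest change was 0.65, that of Eif6. With the normexp background correction the split was 0 higher and 2 lower, with scaling by the 75th percentile 2 and 1, and with scaling by the median 4 and 1. Over all genes the calls numbered 527 of 16338 with the normexp correction. They numbered 1312 of 16348 with scaling by the 75th percentile and 1366 of 16348 with scaling by the median.

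**Figure D1:**
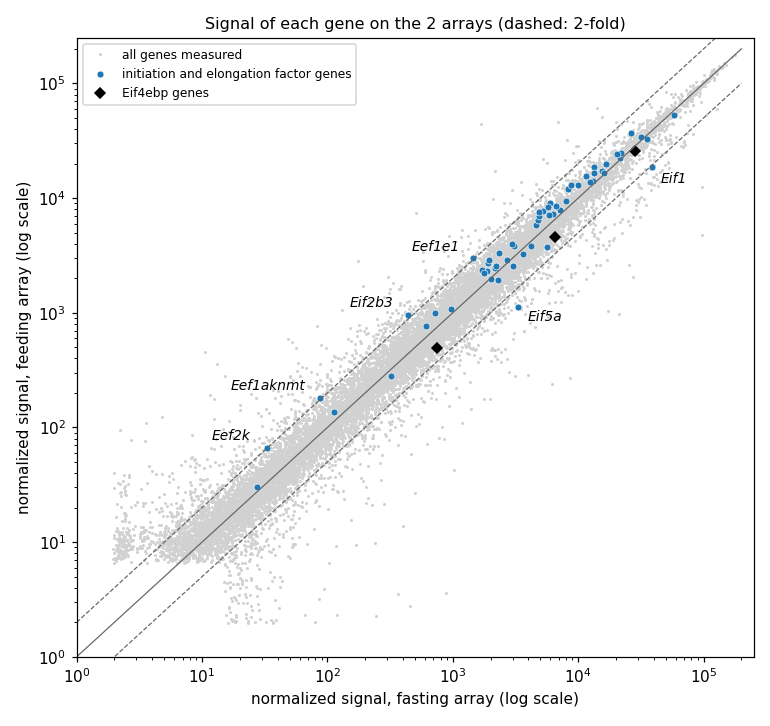
Normalized signal of each gene on the fasting array (x axis, log scale) and on the feeding array (y axis, log scale), with all genes measured in grey, the 59 initiation and elongation factor genes in blue and the 3 Eif4ebp genes as black diamonds. The solid line marks equal signal and the dashed lines a 2-fold difference. Most factor genes sit slightly above the line of equal signal, and the 6 named genes lie outside the dashed lines.

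Probes of the same gene gave a measure of how far single changes can be trusted. Of the 22 factor genes with more than 1 probe that gave a fold, all probes pointed the same way in 16, and the median gap between the probes of a gene was 0.25, close to the median change of the whole group. For the other 6 genes, Eif2s3x, Eif3h, Eif3j1, Eif4a2, Eif4g3 and Eif5, the probes pointed in opposite directions. A probe of Eif2d was spotted 10 times on each array. Its processed signals ran from 1208 to 1620 with a median of 1551 upon fasting, and from 1261 to 1365 with a median of 1295 upon feeding. The spots of the arrays thus overlapped, and the change of this probe was -0.13.

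The factors that scan the leader, recognise the start codon and join the subunits contained 8 measured genes, 7 of them higher upon feeding. Eif6, which keeps free large subunits from joining too early, had processed signals of 4912 upon fasting and 7452 upon feeding (change 0.65), and its other probe changed by 0.77. Eif1a, which with eIF1 holds the scanning complex open, was higher by 0.61 (5983 and 8961). The exception was Eif1, the gatekeeper of start codon choice, whose bright probe gave 39172 upon fasting and 18480 upon feeding. After normalization this probe was 2.09-fold lower upon feeding. The other probe of Eif1 gave 13819 and 11858, a change of -0.21, and with the probes averaged the change was -0.64. This call therefore rests on 1 probe, and it was also lost when the arrays were scaled by the median (-0.85) or the 75th percentile (-0.97). The related gene Eif1b was higher by 0.51.

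eIF2 and the carriers of initiator tRNA showed no call among 6 genes. Eif2s1, the subunit that stress kinases phosphorylate, was higher by 0.51, with processed signals of 8442 and 11842 on its bright probe. Its other probe was not well above background upon fasting and gave no fold. Eif2s3x and Eif2s3y, the X-linked and Y-linked copies of the gamma subunit gene, changed by 0.09 and 0.33, with the limit that copies of similar sequence can bind each other's probes. Eif2d, which can deliver tRNA without eIF2, was lower by 0.22.

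All 5 genes of eIF2B, the exchange factor that reloads eIF2 and the target of the integrated stress response, were higher upon feeding, with changes from 0.29 (Eif2b2) to 1.12 (Eif2b3) and a median of 0.47. Eif2b3, which encodes the gamma subunit of this complex, was the largest increase among all factor genes. Its probes gave processed signals of 461 and 922 in one case and 367 and 721 in the other, in the order fasting and feeding. These probes changed by 1.12 and 1.11 and so differed by 0.02. Eif2b3 stayed past 2-fold under both other scalings and fell just short with the normexp correction (0.85), and 2.42% of all genes measured increased more. Eif2b1, Eif2b5 and Eif2b4 were higher by 0.50, 0.47 and 0.43.

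Small increases ran through the eIF3 scaffold. All 13 subunit genes were within 2-fold, 12 of them were higher, and the median change was 0.16. Eif3g, an RNA-binding subunit needed for scanning, had the largest increase, 0.57, from 8820 to 12812. Eif3b, the subunit around which the others assemble, changed by -0.02, with signals of 2035 and 1953, and this small value turned positive under either scaling and under the normexp correction. Eif3j1 rested on probes that disagreed, with 0.42 and -0.21.

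**Figure D2:**
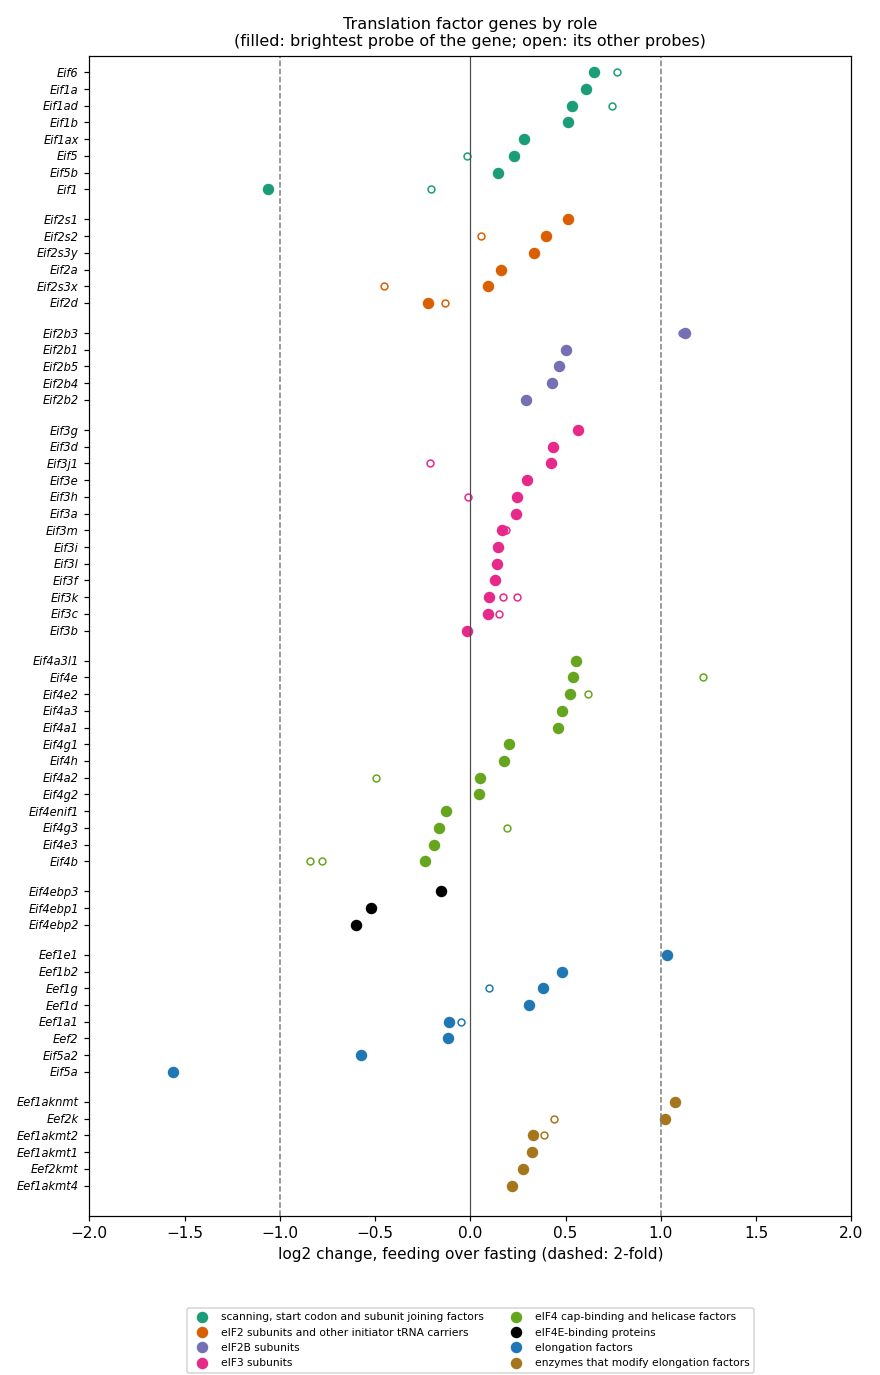
Log2 change of feeding over fasting (x axis) for the 59 factor genes and 3 Eif4ebp genes measured, sorted within role groups (y axis); filled points are the bright probe of a gene, open points its other probes with signal well above background on both arrays, and dashed lines mark 2-fold. All 5 eIF2B genes lie to the right of 0, all 3 Eif4ebp genes to the left, and Eif5a at -1.56 is farthest out.

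The cap-binding and helicase factors were mixed, with 9 of 13 genes higher, 4 lower and none past 2-fold. The eIF4F complex joins a cap-binding protein, a helicase and a scaffold, each with related gene copies. By bright probe, the scaffold copies Eif4g1 and Eif4g3 differed in direction. So did the cap-binding copies Eif4e2 (0.52) and Eif4e3 (-0.19), whereas the helicase copies Eif4a1 and Eif4a2 were both above 0. Eif4e, the cap-binding protein, had processed signals of 5323 upon fasting and 7522 upon feeding (0.54) on its bright probe and 117 and 240 (1.22) on a much dimmer one. Eif4a1, the main helicase, gave 13569 and 18551 (0.46), and Eif4g1, the main scaffold, gave 6351 and 7176 (0.21). Their paralogs did not move alike: Eif4a2 gave 0.05 on its bright probe and -0.49 on the other, and Eif4g3 gave -0.16 on its bright probe and 0.19 on a dim one. Eif4b, which stimulates the helicase, went the other way on all 3 of its probes, with changes of -0.24, -0.78 and -0.84, of which the first, on the bright probe, stands for the gene. Eif4a3 and the closely related Eif4a3l1 were higher by 0.48 and 0.55, but probes of such near copies cannot be relied on to separate them.

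Eif4e, Eif4a1 and Eif4g1 are known targets of MYC, which binds the E-box CACGTG, so their promoters are shown with this palindromic motif in capitals. The sequences are those of RefSeq for the build GRCm38.p6, from 250 bases before to 30 bases after the annotated start, at chr3:138527018-138527297 on the plus strand for Eif4e, chr11:69672394-69672673 on the minus strand for Eif4a1 and chr16:20672477-20672756 on the plus strand for Eif4g1. The promoter of Eif1, the gene that was lower while its group was higher, follows at chr11:100319699-100319978 on the plus strand.
Eif4e: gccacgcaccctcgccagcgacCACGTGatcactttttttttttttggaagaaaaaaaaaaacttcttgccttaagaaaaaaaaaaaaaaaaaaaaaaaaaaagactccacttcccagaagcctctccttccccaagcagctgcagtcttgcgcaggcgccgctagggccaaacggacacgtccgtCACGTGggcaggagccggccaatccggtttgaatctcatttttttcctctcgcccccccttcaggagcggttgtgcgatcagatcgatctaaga
Eif4a1: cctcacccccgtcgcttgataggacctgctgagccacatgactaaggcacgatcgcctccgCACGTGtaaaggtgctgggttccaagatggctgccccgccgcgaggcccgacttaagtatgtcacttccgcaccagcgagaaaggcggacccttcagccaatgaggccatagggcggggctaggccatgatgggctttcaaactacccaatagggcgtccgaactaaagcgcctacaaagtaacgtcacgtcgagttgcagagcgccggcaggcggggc
Eif4g1: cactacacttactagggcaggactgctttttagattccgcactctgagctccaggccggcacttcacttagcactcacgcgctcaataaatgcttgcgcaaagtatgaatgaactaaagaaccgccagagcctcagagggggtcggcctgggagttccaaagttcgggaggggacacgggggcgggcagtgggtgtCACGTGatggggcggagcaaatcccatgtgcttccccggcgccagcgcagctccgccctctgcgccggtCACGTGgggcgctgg
Eif1: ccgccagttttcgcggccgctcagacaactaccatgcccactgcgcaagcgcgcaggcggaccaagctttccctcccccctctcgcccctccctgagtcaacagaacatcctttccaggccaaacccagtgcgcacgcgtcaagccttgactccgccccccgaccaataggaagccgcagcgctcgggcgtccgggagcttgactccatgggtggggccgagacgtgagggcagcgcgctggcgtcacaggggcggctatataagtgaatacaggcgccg
The motif stands at 2 places in the window of Eif4e, at 1 in that of Eif4a1 and at 2 in that of Eif4g1, and these letters do not occur in that of Eif1. They are also absent from the matching window of Eef1e1, a gene called higher, which is not printed. Eif4e has 2 windows in RefSeq, and the first one that holds the motif was printed. Whether motif and direction of change go together was not tested on these few promoters.

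Across the whole group, 49 factor genes had a promoter in the RefSeq table, some with several start sites, and 14 of them (28.6%) held CACGTG in the full RefSeq window of 300 bases, of which 280 are printed above. It was present in 7.15% of all 32851 promoters, in 10.4% of the genes measured here and in 12.1% of the brightest genes. The median change was 0.21 in the 14 factor genes with the motif and 0.29 in the 34 measured ones without it, whereas over all genes measured it was 0.06 with the motif and 0.01 without. These differences were not tested. The factor genes with the motif ran from -1.56 (Eif5a) to 1.08 (Eef1aknmt). The ATF4 response element TGATGNAA, searched on both strands, was found for 2 factor genes, Eef2k and Eif2s3x (4.08%). This compares with 3.29% of the genes measured and 3.97% of all promoters. The forkhead site TGTTTAC, also on both strands, was found for Eif2s3y alone (2.04%), against 3.38% of the genes measured and 3.65% of all promoters. An annotated start at C followed by at least 4 bases C or T, the mark of mRNAs whose translation follows mTORC1, was found for Eif2s3x and Eif3f (4.08%). The share was 2.87% of the genes measured and 2.51% of all promoters. This last search depends on the exact start base in the annotation.

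Each of the 3 Eif4ebp genes had a lower signal upon feeding, and none was past 2-fold. Their proteins hold eIF4E away from eIF4G until mTORC1 phosphorylates them. Eif4ebp1, the best studied of them, had processed signals of 6663 upon fasting and 4534 upon feeding (-0.52). Eif4ebp2 gave 782 and 472, and after normalization it was 1.51-fold lower (-0.60). Eif4ebp3 gave 29149 and 25422 (-0.15), and with scaling by the median its change was 0.04. The direction of Eif4ebp1 and Eif4ebp2 was the same under every scaling and background correction tried, and it was opposite to that of Eif4e. Each gene was measured by a single probe.

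Elongation factors divided by complex. The central factors hardly differed: Eef1a1, which delivers aminoacyl-tRNAs, had processed signals of 59482 and 51838 (-0.11, and -0.05 on its other probe), and Eef2, the translocase, 35812 and 32124 (-0.12). Both values became slightly positive with scaling by the median, at 0.04 and 0.08. The subunits of the exchange factor that recharges eEF1A were higher, with Eef1b2 at 0.48 (26917 and 36523), Eef1g at 0.38 and Eef1d at 0.31. Eef1e1, which despite its symbol is a scaffold of the complex of aminoacyl-tRNA synthetases, gave 1487 upon fasting and 2943 upon feeding. After normalization Eef1e1 was 2.05-fold higher, with normalized signals of 1454 and 2978. Its change was 0.91 with the normexp correction, just short of 2-fold.

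Eif5a, the hypusine-bearing factor that frees ribosomes stalled at prolines, had the largest change of all factor genes. The fasting array gave a processed signal of 3362 and the feeding array one of 1093. After normalization the signals were 3311 and 1123, or 2.95-fold lower (-1.56). The value lay between -1.56 and -1.34 under all scalings and corrections tried, so the call held in each of them, and 1.95% of all genes measured decreased more. The gene was measured by a single probe, designed for 1 of its 9 curated RefSeq transcripts, and whether the others share its target was not tested. Its paralog Eif5a2 was lower too, by 0.57 (5674 and 3740). Dhps and Dohh, which encode the enzymes that make hypusine, changed the other way, by 0.28 and 0.44.

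All 6 genes for enzymes that modify elongation factors were higher, against 51.3% of all genes with a fold. Past 2-fold were 2 of the 6, against 7.91% of all genes measured. Eef1aknmt, a methyltransferase of eEF1A, had processed signals of 93.6 and 169.5 and normalized signals of 86.6 and 182.5 (1.08). Its change was 0.59 with the normexp correction and 0.97 with scaling by the 75th percentile. Eef2k, the kinase that stops eEF2, was dim, with 35.5 and 61.7 on one probe (normalized 32.8 and 66.6, change 1.02). Its other probe gave 25.8 and 30.5 (0.44). With the normexp correction Eef2k changed by 0.24, which is within 2-fold, so this call was lost. It was also lost with scaling by the 75th percentile (0.91) and with the probes averaged (0.73). The SD of replicate spots at such signals, taken without the normexp correction, is 0.29. The remaining 4, among them Eef1akmt4 at 0.22, lay between 0.22 and 0.33.

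**Figure D3:**
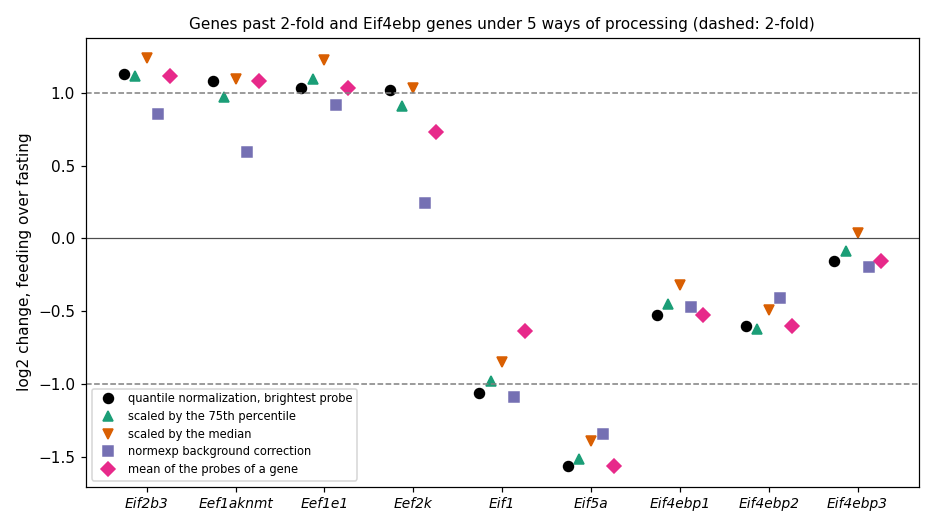
Log2 change of feeding over fasting (y axis) of the 6 factor genes past 2-fold and the 3 Eif4ebp genes (x axis) under 5 ways of processing, shown by symbol; dashed lines mark 2-fold. Eif5a stays below -1 throughout, Eif2b3 and Eef1e1 drop inside the line only with the normexp correction, and Eef2k ranges from 0.24 to 1.03.

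Beyond the factors themselves, 61 genes of translation control were followed, among them mTORC1 and its regulators, the eIF2 kinases and phosphatases, poly(A)-binding and release factors, and the enzymes of hypusine and diphthamide. Of these, 60 were measured, 3 were past 2-fold higher and 3 lower (10% in all, against 7.91% of all genes), and the median change was 0.03. The largest change was that of Ddit4 (REDD1), an inhibitor of mTORC1 that glucocorticoids induce, with normalized signals of 27114 upon fasting and 2046 upon feeding (-3.73). Mknk2, a kinase of eIF4E, went from 29114 to 8621 (-1.76), and Sesn1, a sestrin that restrains mTORC1, from 1581 to 753 (-1.07). In the other direction, Pdcd4, which sequesters eIF4A, went from 178 to 784 (2.14). Dph2 and Dph7, both of the pathway that makes the diphthamide residue of eEF2, were higher by 1.02 each, close to the threshold. Of the same pathway Dph5 changed by 0.85, Dph1 by 0.41, Dph6 by 0.21 and Dph3 by 0.01. The genes of the translation control list called higher fell from 3 to 1 with the normexp correction and to 2 with scaling by the 75th percentile. The 4 eIF2 kinase genes were within 2-fold, with Eif2ak2 at 0.61, Eif2ak3 at 0.02, Eif2ak4 at -0.15 and Eif2ak1 at -0.39. Mtor itself was lower by 0.54.

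The factors were set beside their closest partners, the 22 genes of cytosolic aminoacyl-tRNA synthetases with their scaffolds and 87 genes of cytosolic ribosomal proteins. Of the ribosomal protein genes 85 were measured and none was past 2-fold, while 78 were higher, with a median of 0.18 and a range from -0.20 to 0.58. The factor genes thus had a similar small shift and a wider range, from -1.56 to 1.12. Of the synthetase genes 20 of 22 were higher, against 51.3% of all genes with a fold, and their median was 0.39. At 2-fold 2 of them were called (9.09%, against 7.91% of all genes), Yars (1.13, on a dim probe) and Dars (-1.25, from 1249 to 524). Aars counts as higher by its bright probe (0.82), but the mean of its 2 probes was -0.50. The difference between these lists was not tested, as 1 array per group allows no test.

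**Figure D4:**
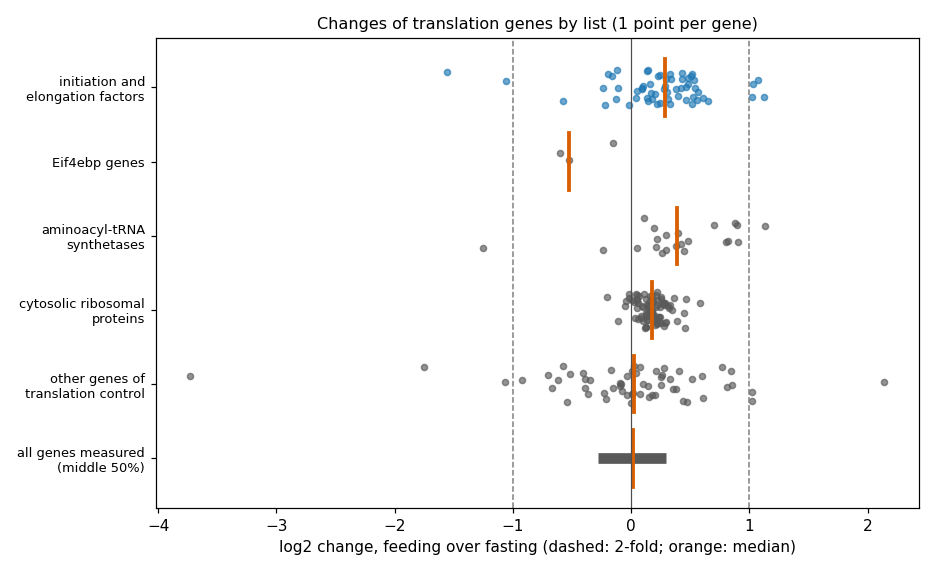
Log2 change of feeding over fasting (x axis) for each gene of the initiation and elongation factors, the Eif4ebp genes, aminoacyl-tRNA synthetases, cytosolic ribosomal proteins and the other genes of translation control (y axis), with the median of each list in orange, the middle 50% of all genes measured as a bar, and dashed lines at 2-fold. The medians of factors (0.28), synthetases (0.39) and ribosomal proteins (0.18) lie to the right of 0 and that of the Eif4ebp genes (-0.52) to the left.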

How the data were processed

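Total liver RNA was labelled by the authors with Cy3 (Quick Amp kit) for Agilent arrays of the whole mouse genome, which were read with Feature Extraction 11.0.1.1. The deposited values used are intensities: the processed signal, which the software had background-subtracted and detrended, and the raw median and local background signals. None is normalized between arrays. The deposited value table of the series equals the mean local background and was not used. Without control and outlier spots, a probe was given the mean log2 signal of its spots, and quantile normalization, named in the methods, was followed by median scaling. Both arrays lay on the same slide. Of 39402 probes, 27218 were named by transcript identifier in the RefSeq table of GRCm38.p6; the array design names mm9, so no gene coordinates are given. A probe not well above background on 1 array gave a lower bound against the lowest signal well above background there, and no fold where that bound was under 1.

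The members and lists were chosen with earlier results of these data known. Genes named were those past 2-fold, the Eif4ebp genes, the extremes overall and of each role group, core subunits, genes whose probes differ by over 1 on the log2 scale (none) and, of the other lists, those past 2-fold; other genes named were chosen after their values were seen. Alternatives comprised scaling to the median or the 75th percentile, normexp correction of the median signals with an offset of 50 (limma 3.58.1, R 4.3.3), the mean of probes, other filters, no lower bound and thresholds of 1.5-fold and 3-fold. With no replicates, a value counted as moved when it shifted by more than the SD of replicate spots. The calculation of fold changes was checked on simulated data with known changes, which is no test of the differences reported here. Python 3.11.15 was used. The number of arrays limits the precision.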

Additional observations from a re-analysis of the deposited data

How the results depend on the processing

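No paired analysis was possible because each group has 1 array. The count of factor genes past 2-fold, 6, was 3 with scaling by the 75th percentile, 2 with the normexp correction and 0 at a 3-fold threshold, and it lay between 4 and 8 under the other alternatives. Their median of 0.28 was 0.46 with scaling by the median, where that of all genes was 0.13, and between 0.24 and 0.34 otherwise. Of the 7 role groups without the Eif4ebp genes, 7 had a median above 0, and 6 without a filter on dim probes, where the elongation factors were at 0.00. All 3 Eif4ebp genes were lower, and 2 with scaling by the median. The translation control list had 6 genes past 2-fold, 16 at 1.5-fold, 3 at 3-fold and 3 with the normexp correction. The synthetases had 2, and 8 at 1.5-fold, 0 at 3-fold, 1 with the normexp correction and 6 with scaling by the median. The ribosomal proteins had 0, and 1 without a filter on dim probes. Over all genes 1293 were past 2-fold, 527 with the normexp correction and 2023 without a filter. The cause of these shifts was not tested. For single named factor and Eif4ebp genes, 129 recomputed changes moved by less than the SD of replicate spots and 39 by more. This tally is no measure of stability. The other filters and leaving out the lower bound did not alter any named gene that had a change, and averaging cannot alter genes with 1 probe. With scaling by the median, most of the named genes moved. Dim probes such as those of Eef2k are the least certain, since the local background was 30 upon fasting and 22 upon feeding (medians over spots).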

Other observations

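The translation factors of mitochondria, which serve the separate ribosomes of that organelle, were looked at after the cytosolic factors had been seen, with 10 genes written down from general knowledge. All 10 were measured and none was past 2-fold, against 7.91% of all genes measured. Their median change was 0.21, and 7 of them were higher upon feeding. Of all genes with a fold 51.3% were higher, with a median of 0.01. Mtrf1l, a release factor, had the largest increase (0.48, with normalized signals of 563 and 788), followed by the initiation factor Mtif3 (0.47, 261 and 361). The elongation factor Gfm1 changed by 0.29 and Tufm by 0.13. Mtif2, Gfm2 and Mrrf lay within 0.03 of 0 on the log2 scale.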
